A study of Rattus norvegicus with 78 samples.

Results

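Among rats of the Flinders Resistant Line (FRL), 1 probeset, here called the dividing probeset, was read at 2 separate levels, and the other transcripts of the same arrays were compared between them. A probeset is a set of short oligonucleotides on an Affymetrix rat array that together give 1 intensity for 1 transcript. The members are the 44 FRL arrays of the 78 arrays of the series, 22 from the hippocampus (HIP) and 22 from the prefrontal/frontal cortex (P/FC). In each region the log2 intensities of the dividing probeset were sorted and split at the widest gap, so that the members were chosen by these measured values, with 10 low and 12 high arrays in each. The array annotation used here gives the dividing probeset no gene symbol.

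FRL and FSL, the Flinders Sensitive Line, were bred from Sprague-Dawley rats for opposite responses to the anticholinesterase DFP, and FSL rats serve as a model of depression-like behaviour. The rats were adult males of 2 cohorts raised apart in time, all tested in the forced swim test a week before sampling. The FRL arrays of each region were 12 of cohort 1 and 10 of cohort 2, and 17 FSL arrays of each region are used only to place the levels. The methods take both regions from the same animals, but the labels do not say which HIP array and which P/FC array share a rat, so the regions are not independent animals.

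Both regions are large mixtures of cells: neurons, astrocytes, oligodendrocytes that make myelin, and microglia, the resident immune cells of the brain. Hippocampus and frontal cortex are both studied in depression, and immediate early genes, switched on briefly by neuronal activity, are often read there after stress. In such bulk tissue, fewer cells of a type and less RNA per cell cannot be told apart.

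The values of the dividing probeset chose the groups and are given as a description only. In HIP the 10 low arrays lay between 50.9 and 89.4 with a median of 60.9, and the 12 high arrays between 158.0 and 207.8 with a median of 182.3. In P/FC the 10 low arrays lay between 36.2 and 71.0 with a median of 62.1, and the 12 high arrays between 146.2 and 184.2 with a median of 161.6. The levels did not overlap, as the split requires.

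The last array below the gap and the first above it read 89.4 and 158.0 in HIP, a step of 0.82 on the log2 scale, and the next widest gap was 0.36. In P/FC they read 71.0 and 146.2, a step of 1.04, and the next widest gap was also 0.36. The mean log2 difference of high minus low was 1.54 in HIP and 1.5 in P/FC. The 17 FSL arrays showed no second level: in HIP they lay between 37.1 and 86.0, in P/FC between 42.6 and 71.7, below the first high FRL array in both regions.

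**Figure D1:**
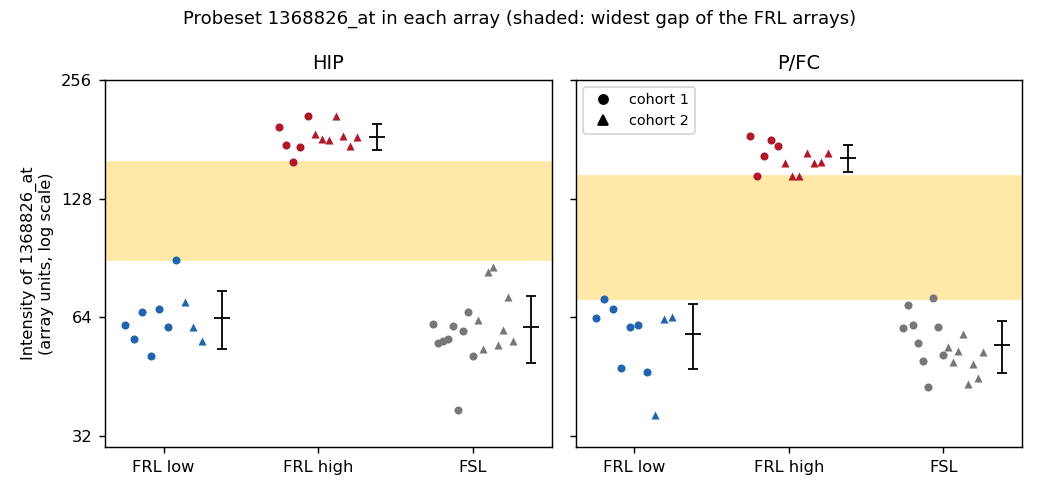
Intensity of the dividing probeset (array units, log scale) in the low FRL, high FRL and FSL arrays of HIP and P/FC. Circles are arrays of cohort 1 and triangles of cohort 2, the bar is the mean ± SD, and the shaded band is the widest gap of the FRL arrays (HIP 89.4 to 158.0, P/FC 71.0 to 146.2). All FSL arrays lie below the high FRL arrays.

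Both levels occurred in both cohorts, in the same numbers in each region: 7 low and 5 high arrays in cohort 1, and 3 low and 7 high arrays in cohort 2. The high arrays of HIP averaged 181.6 ± 19.5 (SD, n = 5) in cohort 1 and 185.4 ± 10.7 (SD, n = 7) in cohort 2. In P/FC they averaged 169.9 ± 15.1 (SD, n = 5) and 157.1 ± 8.51 (SD, n = 7). Because the cohorts hold unequal shares of the levels, cohort was a term in the main comparisons of transcripts. Their differences below are high minus low at equal cohort on the log2 scale.

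The quality measures of the 2 levels overlapped. Median intensity ran from 57.7 to 62.6 over the low and from 56.8 to 63.0 over the high HIP arrays, and from 60.8 to 64.8 and from 61.1 to 65.9 in P/FC. The log2 ratio of 3′ to 5′ control probesets grows as RNA degrades. Pooled over the cohorts with no cohort term, it differed between levels by -0.01 for Gapdh and 0.02 for Actb in HIP. In P/FC it differed by 0.01 and 0.08. None of the 12 permutation tests of these ratios, pooled and within cohorts, had an adjusted p (Benjamini-Hochberg) below 0.957. As a check of the tissue, Prox1, a transcription factor of hippocampal granule cells, read 338.0 to 468.0 in the FRL arrays of HIP and 100.9 to 143.5 in those of P/FC.

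No other transcript was called between the levels in either region. In HIP, limma called 0 of 21629 probesets (0% called) at an adjusted p (Benjamini-Hochberg) under 0.05, and 599 (2.77%) had an unadjusted p under 0.05, 262 higher (1.21%) and 337 lower (1.56%) in the high arrays. At an unadjusted p under 0.01 there were 85 (0.393%). In P/FC it called 0 of 22369 (0% called), with 968 (4.33%) at an unadjusted p under 0.05, 462 higher (2.07%) and 506 lower (2.26%), and 193 (0.863%) under 0.01. A plain analysis of variance also called 0 in both regions, with 624 and 952 at an unadjusted p under 0.05.

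No probeset other than the dividing one separated the levels: the low and high arrays overlapped for every probeset tested in HIP and in P/FC. The median size of a difference was 0.05 in HIP and 0.06 in P/FC, against a median standard error of 0.09 in both. The 95% interval of a single probeset reached, at the median, 0.18 to either side in HIP and 0.20 in P/FC, before any correction for the number of tests. This is the precision of an estimate, and true differences of that size could often be missed.

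Of the 20962 probesets tested in both regions, 0 were called in both (0% called). At an unadjusted p under 0.05 in each, 64 (0.305%) lay on the same side, 24 higher and 40 lower in the high arrays, and 10 (0.0477%) on opposite sides. The 64 made up 11.3% of the 567 such probesets of HIP and 7.31% of the 875 of P/FC. At an unadjusted p under 0.01 in each, 11 (0.0525%) lay on the same side and 0 on opposite sides. These 11 were chosen after their values were seen and are described as the probesets nearest to a shared difference, with no claim that any of them passed.

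**Figure D2:**
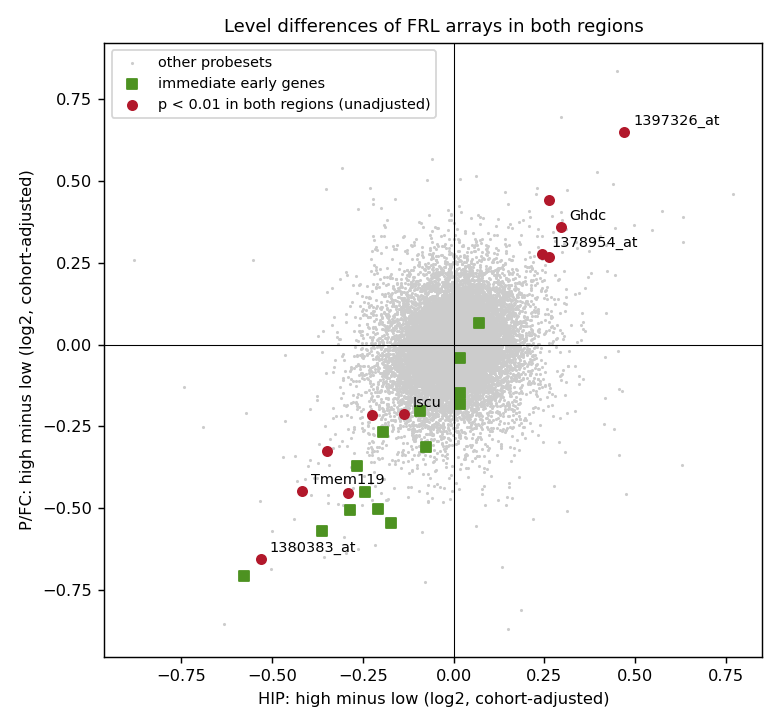
Each point is a probeset tested in both regions, with its cohort-adjusted log2 difference of high minus low FRL arrays in HIP (x axis) and in P/FC (y axis). Red circles are the 11 probesets at an unadjusted p under 0.01 in both regions, 5 higher and 6 lower in the high arrays, green squares are the immediate early genes, and grey points are all others. None passed the adjusted threshold in either region.

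Of the 11, 5 were higher and 6 lower in the high arrays, and 4 have a gene symbol. The adjusted p from limma was 0.9999 for each in HIP and 0.9986 for each in P/FC, and the groups overlapped for all 11 in each region. All 11 kept their sign within both cohorts. They were chosen by a fit of these same arrays, which favours a kept sign, so this is no separate support. The difference was larger in cohort 1 than in cohort 2 for 10 of them in HIP and for 9 in P/FC.

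The probeset 1378954_at, which has no symbol, came closest to a shared difference. In HIP its low arrays lay between 119.2 and 183.7 with a median of 155.7, and its high arrays between 153.4 and 201.1 with a median of 190.2. In P/FC the low arrays lay between 122.7 and 167.4 with a median of 162.1, and the high arrays between 165.9 and 234.8 with a median of 193.7. All 12 high P/FC arrays were above the low median, as were 10 of 12 in HIP. The difference was 0.24 ± 0.07 (SE) in HIP and 0.28 ± 0.06 in P/FC. It was 0.30 in cohort 1 and 0.16 in cohort 2 of HIP, and 0.27 and 0.29 in P/FC.

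In a fit of both regions together, which was added after the values were seen and takes arrays of the same rat as independent, 1378954_at was the 1 probeset of 20962 that limma called, at 0.26 ± 0.05 (SE) and an adjusted p of 0.0403. In that fit 1072 probesets had an unadjusted p under 0.05. Without the filter on low intensities the same fit called 0, with 1618 at an unadjusted p under 0.05. The FSL arrays, all below the high FRL arrays in the dividing probeset, averaged 152.8 ± 13.5 (SD, n = 17) in HIP and 157.3 ± 17.1 in P/FC for 1378954_at, beside 155.9 ± 17.7 (n = 10) and 154.8 ± 15.9 in the low FRL arrays.

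The probeset 1397326_at, also without a symbol, was dimmer and had the largest positive difference of the 11. In HIP its low arrays lay between 20.4 and 61.5 with a median of 35.9, and its high arrays between 38.3 and 76.1 with a median of 55.9. In P/FC they lay between 29.6 and 78.0 with a median of 39.2, and between 47.0 and 110.8 with a median of 66.3. All 12 high arrays were above the low median in both regions, although the ranges overlapped. The difference was 0.47 ± 0.14 (SE) in HIP and 0.65 ± 0.17 in P/FC. In P/FC it was 0.95 in cohort 1 and 0.23 in cohort 2. FSL arrays averaged 35.7 ± 8.64 (SD, n = 17) in HIP and 35.7 ± 8.49 in P/FC, again near the low FRL arrays.

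The probeset 1380383_at, without a symbol, had the largest negative difference of the 11. In HIP its low arrays lay between 65.4 and 114.3 with a median of 90.1, and its high arrays between 36.9 and 78.3 with a median of 71.0. In P/FC they lay between 97.5 and 214.2 with a median of 152.9, and between 54.5 and 143.7 with a median of 114.3. All 12 high arrays were below the low median in both regions. The difference was -0.53 ± 0.14 (SE) in HIP and -0.66 ± 0.19 in P/FC. Here the FSL arrays, at 59.7 ± 13.2 (SD, n = 17) and 76.7 ± 29.1, lay nearer to the high FRL arrays.

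**Figure D3:**
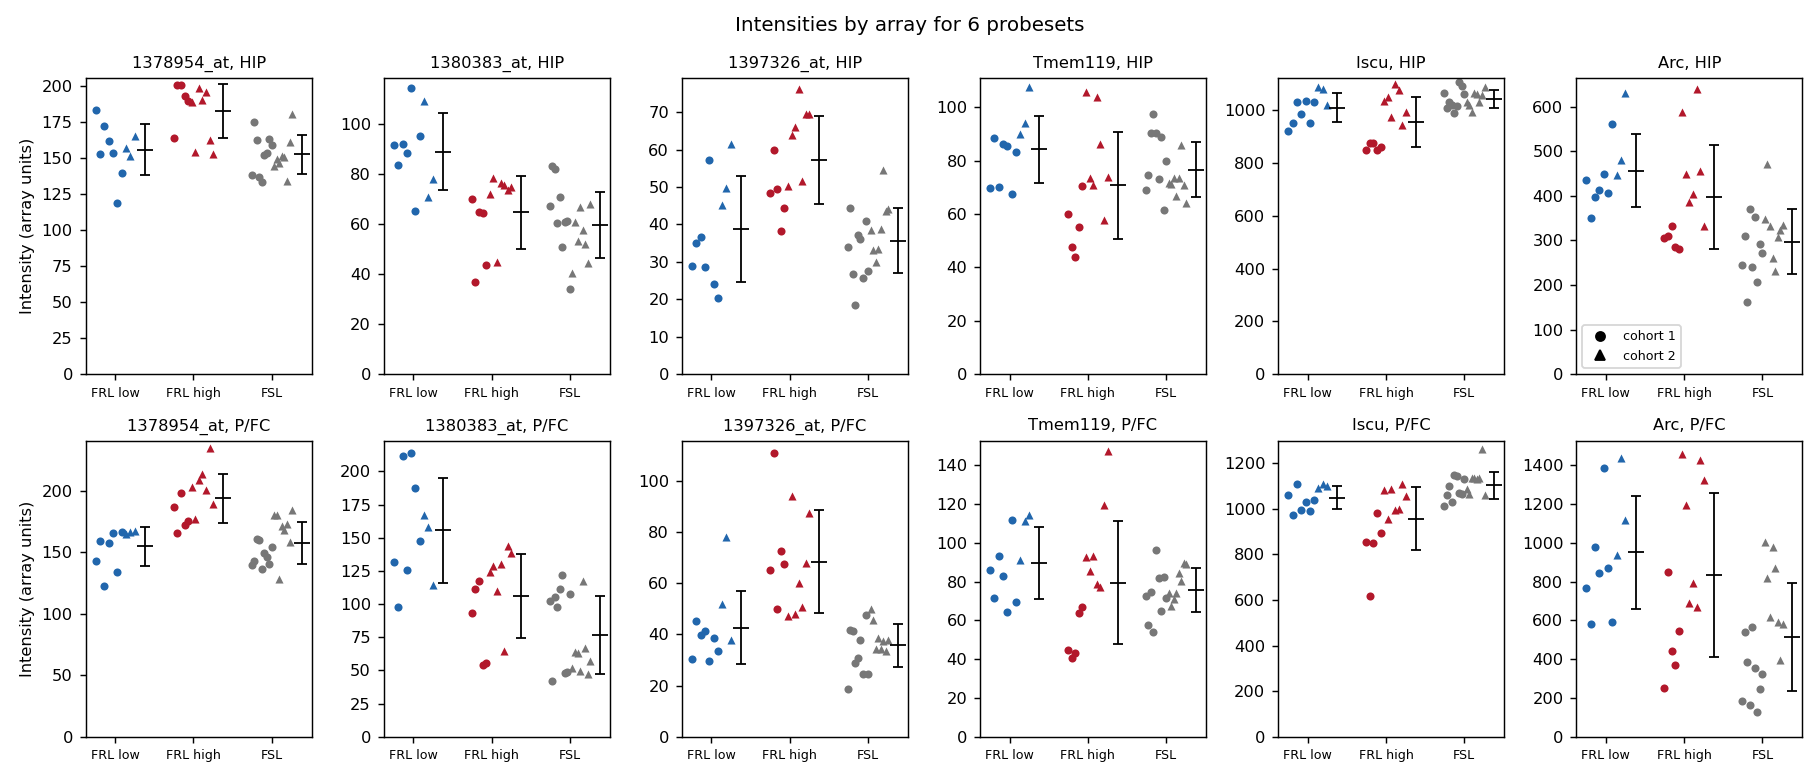
Intensity (array units, linear axis from 0) of 6 probesets in the low FRL, high FRL and FSL arrays of HIP (top) and P/FC (bottom). Circles are arrays of cohort 1, triangles of cohort 2, and bars show the mean ± SD over both cohorts. Low and high arrays overlap in every panel, and for Tmem119, Iscu and Arc the high arrays of cohort 1 lie mostly lower than those of cohort 2.

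Tmem119, a membrane protein used as a marker of microglia, was the 1 cell type marker among the 11. In HIP its low arrays lay between 67.5 and 107.7 with a median of 85.9, and its high arrays between 43.97 and 105.8 with a median of 70.7. In P/FC the low arrays lay between 64.3 and 114.5 with a median of 88.5, and the high arrays between 40.8 and 147.1 with a median of 77.9. The ranges overlapped widely, and the high arrays held both the lowest values and, in P/FC, the highest. At equal cohort the difference was -0.42 ± 0.11 (SE) in HIP and -0.45 ± 0.14 in P/FC. It was -0.52 in cohort 1 and -0.28 in cohort 2 of HIP, and -0.68 and -0.12 in P/FC.

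Tmem119 stood alone in its list at this threshold. Of the 10 markers measured in HIP and 11 in P/FC, Tmem119 was the 1 marker with an unadjusted p under 0.05 in each region, beside 2.77% of all probesets in HIP and 4.33% in P/FC, and 0 were called. The median difference of the list was -0.03 in HIP and 0.01 in P/FC, where all probesets tested had medians of -0.0013 and -0.0016. The summed intensity of the list ran from 2358 to 2778 over the low and from 2181 to 2692 over the high HIP arrays. In P/FC it ran from 2579.6 to 3660.3 and from 2352 to 3912.

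Iscu is the scaffold on which mitochondria assemble iron-sulphur clusters. In HIP its low arrays lay between 920.5 and 1089.9 with a median of 1025, and its high arrays between 848.0 and 1099 with a median of 959.4. The difference was -0.14 ± 0.04 (SE) in HIP and -0.21 ± 0.07 in P/FC. In HIP it was -0.20 in cohort 1 and -0.05 in cohort 2, and in P/FC -0.31 and -0.08. The difference was thus larger in cohort 1, where 5 high arrays stand against 7 low arrays.

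Ghdc, a gene named for its GH3 domain, differed by 0.29 ± 0.10 (SE) in HIP and 0.36 ± 0.12 in P/FC. Its HIP medians were 52.5 in the low and 60.2 in the high arrays, and its P/FC medians 55.3 and 68.2. RT1-T24-3 belongs to RT1, the major histocompatibility complex of the rat, whose class I products present peptides to T cells. It differed by -0.35 ± 0.12 (SE) in HIP and -0.33 ± 0.10 in P/FC. All 12 high P/FC arrays of RT1-T24-3 were below the low median of 136.3, and 10 of 12 in HIP were below the low median of 102.1. Genes of this complex are similar in sequence, so that a probeset may read more than 1 of them.

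The remaining 4 of the 11 have no symbol. The probeset 1384996_at differed by -0.29 ± 0.08 (SE) in HIP, where all 12 high arrays were below the low median of 220.1, and by -0.45 ± 0.14 in P/FC. The probeset 1380772_at differed by -0.23 ± 0.07 and -0.22 ± 0.08. The 2 others were higher in the high arrays: 1390603_at by 0.26 ± 0.08 in HIP and 0.44 ± 0.16 in P/FC, and 1390457_at by 0.26 ± 0.09 and 0.27 ± 0.09. All 3 of 1380772_at, 1390603_at and 1390457_at had medians between 37.9 and 70.6, not far above the filter of 30. Medians of 1397326_at (35.9 in the low HIP arrays) and of Ghdc, described above, were not far above that filter either.

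The FSL arrays, all below the high FRL arrays in the dividing probeset, did not share the low side of the 11. Their mean was nearer to that of the low FRL arrays in both regions for 5 of the 11, nearer to that of the high FRL arrays in both for 5, and divided for 1. Nearer to the low arrays were 1378954_at, 1397326_at, 1384996_at, 1390457_at and Iscu. Nearer to the high arrays were 1380383_at, 1390603_at, Ghdc, RT1-T24-3 and Tmem119. These means take no account of cohort, and the nearer mean was not always close. In P/FC the FSL mean of 1390603_at was 50.3, between 42.5 (low) and 57.2 (high). For 1380383_at in P/FC it was 76.7, below both 155.5 (low) and 106.1 (high). The lines were not tested against each other here.

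Immediate early genes are switched on within minutes of neuronal activity, without new protein synthesis, and many encode transcription factors. Of the 18 lists they were the one with the most members at an unadjusted p under 0.05: 4 of 14 measured in HIP and 8 of 15 in P/FC, all lower in the high arrays, beside 1.56% and 2.26% of all probesets on that side. The adjusted p from limma was 0.9999 in HIP and 0.9986 in P/FC, so that 0 were called. The median difference of the list at equal cohort was -0.18 in HIP and -0.37 in P/FC. The summed intensity of the list, which takes no account of cohort, had medians of 3818 in the low and 4008 in the high HIP arrays. In P/FC these medians were 6451 and 6193. Without regard to cohort, the HIP sums were thus not lower in the high arrays at the median. Members above 0 were Homer1 (0.07), Jun (0.02), Nr4a3 (0.02) and Egr3 (0.02) in HIP and Homer1 (0.06) in P/FC. These genes answer to the same stimuli, so the count is not one of separate events.

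Arc, which acts at active synapses, showed the pattern. In HIP its low arrays lay between 349.7 and 629.8 with a median of 441.0, and its high arrays between 280.3 and 639.1 with a median of 359.7. In P/FC the low arrays lay between 583.1 and 1440 with a median of 904.4, and the high arrays between 252.8 and 1459 with a median of 740.7. In both regions the range of the low arrays lay inside that of the high arrays, which reached lower. The difference at equal cohort was -0.36 ± 0.11 (SE) in HIP and -0.57 ± 0.22 in P/FC.

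The transcription factor Nr4a1 differed by -0.29 ± 0.11 (SE) in HIP and -0.51 ± 0.17 in P/FC. Egr1, a zinc finger factor, differed by -0.19 ± 0.08 and -0.27 ± 0.11, and Junb, a part of the AP-1 complex, by -0.27 ± 0.12 and -0.37 ± 0.18. With Arc, these were the 4 of the list at an unadjusted p under 0.05 in both regions. In P/FC the threshold was also met by Ier2 (-0.55 ± 0.19), Fos (-0.71 ± 0.29), Fosb (-0.48 ± 0.23) and the phosphatase gene Dusp1 (-0.50 ± 0.21). In HIP these differed by -0.17 ± 0.12 for Ier2, -0.58 ± 0.28 for Fos and -0.21 ± 0.17 for Dusp1, and Fosb was not above the filter. Dusp1 in HIP was -0.11 without cohort 1 replicate 12 and -0.35 without cohort 2 replicate 7.

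The differences were larger in cohort 1 than in cohort 2. Arc differed by -0.50 in cohort 1 and -0.18 in cohort 2 of HIP, and by -0.87 and -0.16 in P/FC. Fos differed by -0.99 in cohort 1 and -0.00082 in cohort 2 of HIP, and by -1.14 and -0.11 in P/FC. In cohort 2 Dusp1 in HIP (0.09) and Egr1 in P/FC (0.0072) had the opposite sign. The difference was farther below 0 in cohort 1 for all 7 of these genes measured in HIP and all 8 in P/FC, but the test of the difference between cohorts called none of them in limma, with a smallest adjusted p of 0.998 in HIP and 0.524 in P/FC.

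**Figure D4:**
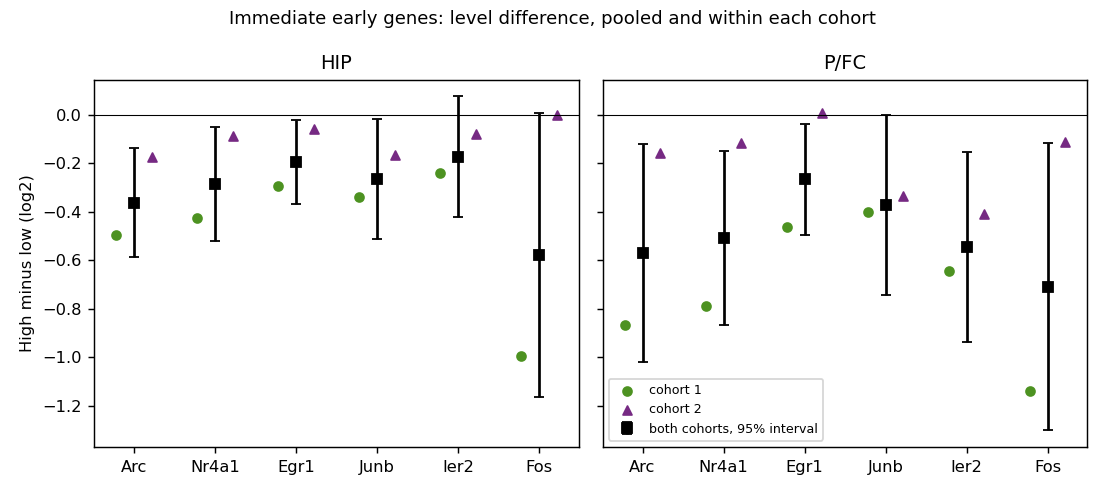
Log2 difference of high minus low FRL arrays for 6 immediate early genes in HIP (left) and P/FC (right). Squares with bars are the cohort-adjusted difference with its unadjusted 95% interval, circles the difference in cohort 1 and triangles that in cohort 2. The cohort 1 points lie below the cohort 2 points for all 6 genes in both regions, and none of the 6 passed the adjusted threshold.

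Myelin genes lay on the low side in every member measured. Of the 9 markers of oligodendrocytes and myelin, 9 were below 0 in HIP and 9 in P/FC, with medians of -0.08 and -0.27, where 50.7% of all probesets tested lay below 0 in each region. At an unadjusted p under 0.05 and lower in the high arrays were 2 of the 9 in HIP and 3 in P/FC, beside 1.56% and 2.26% of all probesets. The 9 mark the same cells, so the count is not one of separate events. Other lists also lay mostly on that side. Astrocyte markers lay below 0 for 8 of 9 in each region. Meningeal markers did for 9 of 10 in HIP and 8 of 9 in P/FC, and choroid plexus markers for 6 of 6 and 4 of 6. In P/FC so did excitatory neuron markers for 8 of 9 and endothelial and mural markers for 9 of 11. In HIP these were 4 of 8 and 5 of 11. Microglial markers lay below 0 for 8 of 10 in HIP and 5 of 11 in P/FC, and inhibitory interneuron markers for 3 of 9 and 2 of 9. Mag, a myelin-associated glycoprotein, differed by -0.14 ± 0.06 (SE) in HIP and -0.32 ± 0.15 in P/FC. Mal, a proteolipid of myelin, differed by -0.22 ± 0.10 and -0.30 ± 0.16. Mobp and Cldn11 differed by -0.37 ± 0.17 and -0.34 ± 0.16 in P/FC and by -0.10 ± 0.06 and -0.02 ± 0.06 in HIP. Without P/FC cohort 1 replicate 1 the P/FC differences were -0.24 for Mobp, -0.22 for Cldn11 and -0.19 for Mal. With 1 array left out at a time, Mag in P/FC ran from -0.41 to -0.22. Limma called none of them, at an adjusted p of 0.9999 in HIP and 0.9986 in P/FC.

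The summed intensity of the myelin list ran from 15245 to 19605 over the low and from 8491 to 19101 over the high P/FC arrays, so that the high arrays held the lowest values and the upper ends were close. In HIP the sums ran from 16119 to 19797 and from 14391 to 19949. These markers are abundant in white matter, and the amount of white matter in each sample was not measured.

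Markers of the other cell types and of neighbouring tissues gave 0 calls in limma in both regions, at adjusted p of 0.9999 in HIP and 0.9986 in P/FC. Astrocyte markers had medians of -0.05 in HIP and -0.05 in P/FC, markers of inhibitory interneurons 0.03 and 0.02, and markers of excitatory neurons 0.00 and -0.02, with 0 members of the 3 lists at an unadjusted p under 0.05. Endothelial and mural markers, at 0.00 and -0.02, and markers of oligodendrocyte precursors, at -0.01 and -0.09, also had 0. Of the 7 measured members of the hippocampal list, 2 had an unadjusted p under 0.05 in P/FC, beside 4.33% of all probesets. They were Calb1 and Wfs1, at 0.17 ± 0.06 (SE) and 0.15 ± 0.07, and differed by 0.03 ± 0.07 and 0.03 ± 0.07 in HIP.

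Markers of choroid plexus and meninges, tissues next to the sampled regions, varied widely from array to array. The summed choroid plexus markers ran from 894.5 to 13504 over the low and from 728.7 to 15017 over the high HIP arrays, with a median difference of -0.20 over the 6 measured. The meningeal list had medians of -0.25 over 10 members in HIP and -0.29 over 9 in P/FC, with sums from 1389.98 to 6978 in the low and from 1338 to 4180.01 in the high HIP arrays. In P/FC these sums ran from 1296 to 7639.8 and from 1055 to 6688. The striatal list had a median of 0.02 in HIP, where Rasd2 differed by 0.20 ± 0.08 (SE), and of 0.17 in P/FC, where Rasd2 differed by 0.06 ± 0.14. Thalamic markers had medians of -0.02 and -0.02, with Prkcd at -0.23 ± 0.09 in HIP and 0.10 ± 0.15 in P/FC. Blood markers, of which 2 were measured, had medians of -0.01 and 0.08. With scores of choroid plexus and thalamus in HIP and of striatum and meninges in P/FC as covariates, limma still called 0 in each region, with 1096 and 1083 at an unadjusted p under 0.05.

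**Figure D5:**
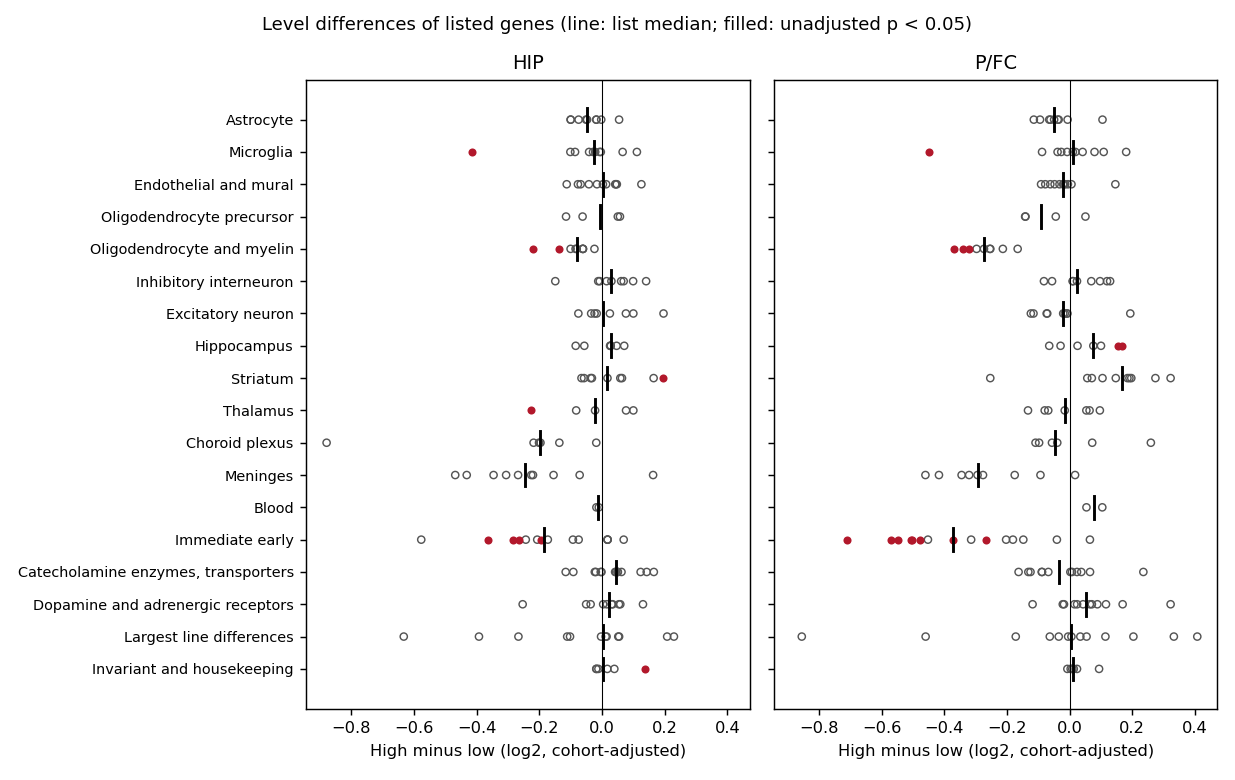
Cohort-adjusted log2 difference of high minus low FRL arrays for each listed gene in HIP (left) and P/FC (right). Each point is a gene, filled red where its unadjusted p was under 0.05, and the black line is the median of the list. All 9 myelin genes lie to the left of 0 in both regions, as do 10 of 14 immediate early genes in HIP and 14 of 15 in P/FC, and no gene passed the adjusted threshold.

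The lists of catecholamine genes and of dopamine and adrenergic receptors gave 0 calls and 0 members at an unadjusted p under 0.05 in either region. Genes of catecholamine synthesis, transport and breakdown had medians of 0.04 over 14 members in HIP and -0.03 over 12 in P/FC. Dopamine and adrenergic receptors had medians of 0.02 over 10 and 0.05 over 12. The transcripts that the study named for large line differences, a list it chose on these arrays, had medians of 0.00 over 12 and 0.01 over 13 between the levels of FRL rats, and 0 at an unadjusted p under 0.05. These medians cover imprecise single values on both sides of 0, with 6 above and 6 below in HIP and 7 and 6 in P/FC. Rnase4 differed by -0.63 ± 0.43 (SE) in HIP and -0.85 ± 0.64 in P/FC. Car3 differed by -0.39 ± 0.40 and -0.46 ± 0.46, and Bmp3 by 0.21 ± 0.22 and 0.41 ± 0.21. Invariant and housekeeping genes had medians of 0.00 and 0.01, with Tbp, a general transcription factor, at 0.14 ± 0.06 (SE) in HIP and 0.09 ± 0.07 in P/FC.

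The level difference was not shown to depend on the region or the cohort. The test of the difference between regions over all 44 FRL arrays called 0 of 20962 probesets (0% called) in limma, with 459 (2.19%) at an unadjusted p under 0.05. The 3 with the smallest p were Gpatch1 (-0.23 in HIP and 0.29 in P/FC), Zmynd15 (-0.23 and 0.48) and LOC102547352 (-0.26 and 0.42), at an adjusted p of 0.9999 each. The test of the difference between cohorts called 0 of 21629 in HIP, with 873 (4.04%) at an unadjusted p under 0.05, and 0 of 22369 in P/FC, with 1987 (8.88%). Cohort 2 held 3 low arrays in each region, which limits what can be read from the cohorts apart.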

How the data were processed

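RNA of both regions was hybridised to Affymetrix rat arrays. The authors used Rosetta Resolver for normalisation and deposited, for every array, a background-subtracted linear intensity of each probeset. The labelling batch of their model is absent from the labels and could not be a term. The dividing probeset of the report is 1368826_at. It and the 57 control probesets were not tested. Before log2, any intensity below 1 was raised to 1. A probeset was kept in a region where 50% or more of the FRL arrays and 50% or more of the FSL arrays read above 30. For each region, limma 3.58.1 in R 4.3.3 fitted level and cohort to the 22 FRL arrays, and p-values were adjusted by Benjamini-Hochberg across all kept probesets. The difference between regions was fitted over 44 arrays. The procedure was tested on simulated data. Control ratios were compared by two-sided permutation tests, with 100000 resamples pooled and exact within cohorts, in scipy 1.17.1 with numpy 2.4.6. Figures were drawn with matplotlib 3.10.9.

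Of 31042 probesets, 20826 have 1 symbol, 436 several and 9780 none, and none was named from several. For a gene with several probesets the lists used 1, by highest mean intensity. The number of arrays limits the precision, and the labels call each array a biological replicate. The members, the gene lists and the tests were chosen with earlier results of these data known. The rule named the probesets called, up to 3 members of each list by smallest p, and 3 probesets by smallest p of the region difference. As none was called, the 11 probesets at an unadjusted p under 0.01 in both regions and the list members at an unadjusted p under 0.05 in at least 1 region were named instead, chosen after their values were seen. Parts of the rule that need the gene of 1368826_at, 2 further gene lists and some genes counted above are not reported here. The alternatives were other filters, quantile normalisation, 16 added before the logarithm, a plain analysis of variance, the level as a continuous value, other covariates, each cohort alone and leaving out each array.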

Additional observations from a re-analysis of the deposited data

How the results depend on the processing

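The count of 0 called probesets in HIP, in P/FC and in both held under the 15 other settings run and without each of the 44 FRL arrays in turn, with 296 to 1096 probesets at an unadjusted p under 0.05 in HIP and 358 to 2355 in P/FC. A joint fit of both regions, added after the data were seen, called 1 probeset, and 0 without the filter. It also called 1 with the replicate block that joins arrays of the same number, where the block correlation was 0.0032. The block fit is thus nearly the fit without a block, and it could not account for arrays of the same rat. The 11 probesets at an unadjusted p under 0.01 in both regions became 3 with a filter of 100, 5 with the level as a continuous value, 5 without the arrays beside the gap, 5 without the cohort term and 2 in cohort 2 alone, where the cause was not tested. Over the arrays left out one at a time the count ran from 6 to 14, with 6 without P/FC cohort 1 replicate 1, and 7 without each of HIP cohort 1 replicate 3, P/FC cohort 1 replicates 7, 8 and 10, and P/FC cohort 2 replicate 9. Under the other alternatives the count stayed between 8 and 15. The named probesets were chosen on these same arrays, so a kept sign is no separate support. Of 2230 values of named probesets under these settings, 2219 kept their sign and 11 turned it, all of them uncalled. In cohort 2 alone these were Dusp1 (0.088) and Zmynd15 (0.072) in HIP and Egr1 (0.0072) in P/FC, and in cohort 1 alone Calb1 (-0.0093) and Cldn11 (0.021) in HIP. Others were Calb1 in HIP with the Gapdh ratio as a covariate (-0.0096) and Wfs1 in HIP without the cohort term (-0.041). With 1 array left out, Wfs1 in HIP ran from -0.0093 to 0.060 (below 0 without cohort 1 replicate 5), Rasd2 in P/FC from -0.014 to 0.12 (below 0 without cohort 1 replicate 7 and without cohort 2 replicate 9) and Prkcd in P/FC from -0.017 to 0.16 (below 0 without cohort 1 replicate 7). The replicate numbers were not shown to pair the regions, and these values cannot settle whether they do. Over 22 same-numbered pairs the correlation of deviations ran from -0.28 to 0.36, with 6 above 0.1 and 4 arrays closest to their own number. Of these pairs 12 had the same level, and the others had a different level in each region. With the replicate block the region difference called 0, with 459 at an unadjusted p under 0.05. The level taken from the same-numbered array of the other region was not run, as the numbers were not shown to pair the arrays. Whether a rat has the same level in both regions was therefore not tested.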
